A study of Mus musculus with 6 samples.

Results

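A set of 10 genes of early blood and vessel development was followed over 6 arrays. These read RNA from 2 lines of mouse embryonic stem cells, each sampled at days 0, 4 and 7 with a single array. The genes were the embryonic globin genes Hbb-bh1, Hba-x and Hbb-y, the transcription regulators Gata1, Klf1, Tal1 and Lmo2, and the endothelial surface genes Kdr, Pecam1 and Cdh5. The members were chosen by name, as every probe set that the platform annotation assigns to 1 of these genes alone, which gave 15 of the 45037 probe sets and 10 of 18193 genes. All cells carried deletions of Dnmt1, Dnmt3a and Dnmt3b, the DNA methyltransferase genes, and expressed an introduced DNMT1 ubiquitously. In the deletion line this DNMT1 lacked its N-terminal 602 amino acids, and in the full-length line it was complete. Day 0 cells were stem cells grown with 10% fetal bovine serum and leukaemia inhibitory factor (LIF). Day 4 cells had been embryoid bodies for 1 day and attached cultures without LIF for 3 days, and day 7 cells had spent 3 more days with 10% KSR and 10 ng/ml Activin A, which the submitters used to induce primitive streak formation. The title of the deletion line's day 0 sample was followed, although its source label describes differentiated cells. Whether each line was 1 clone is not given in the sources used here, each DNMT1 form was present in 1 line, and form and line cannot be told apart, nor can time, medium and Activin A between days 4 and 7.

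In the mouse yolk sac, the earliest red cells arise from mesoderm that also gives rise to endothelium, and progenitors of both carry the VEGF receptor KDR. TAL1 and LMO2 act together in a DNA-binding complex that is needed for blood formation, and GATA1 and KLF1 switch on red cell genes, the globins included. Early red cells make haemoglobin from the embryonic chains encoded by Hba-x, Hbb-bh1 and Hbb-y before adult globin genes take over. PECAM1 and CDH5 are adhesion proteins of endothelial junctions, and PECAM1 is also known on the surface of mouse embryonic stem cells.

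Levels are log2 MAS5 signals, and a value below 5.37 (a signal of 41.2) was set to this floor before differences were taken. A gene counted as measured when the mean signal of its brightest probe set reached the floor, which held for 13277 genes and for 10 of the 10 described here. There were no replicates, and the number of arrays limits the precision. Adjusted p-values come from limma, with line and day as additive terms over the 6 arrays. The spread in this test is the disagreement of the lines over a change with time, so whether their time courses differed could not be tested. In bulk RNA, fewer cells of a type and less RNA per cell cannot be told apart. Values given by day are for days 0, 4 and 7 in that order. The deposited values had array medians between 6.02 and 6.19.

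**Figure D1:**
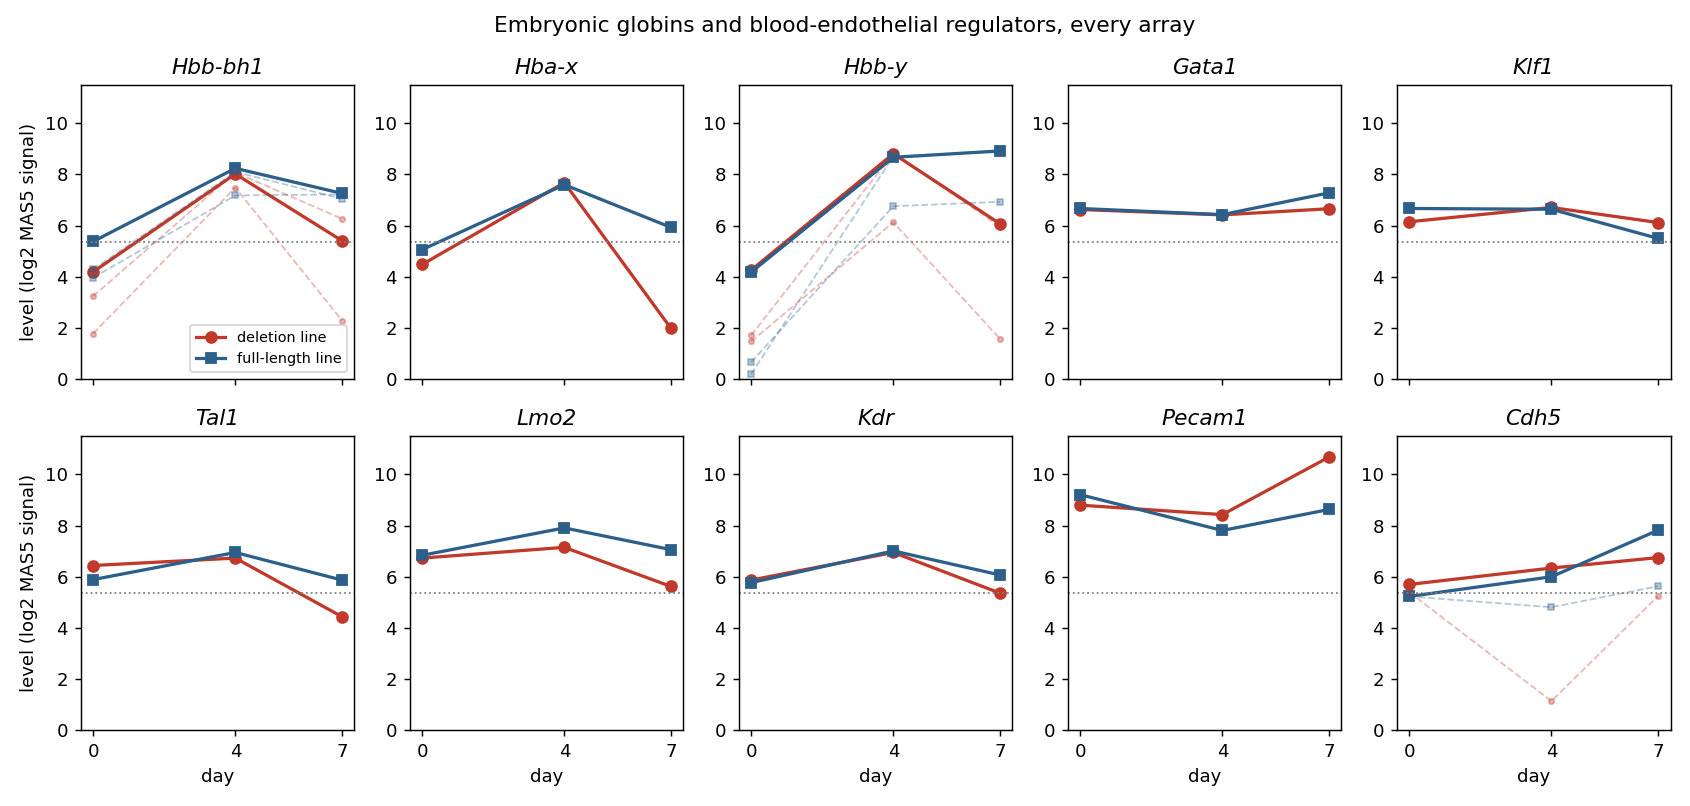
Deposited levels (log2 MAS5 signal) by day for the 10 genes in the deletion line (circles) and the full-length line (squares), with the brightest probe set as a solid line, other probe sets as dashed lines and the floor of 5.37 as a dotted line. The 3 globin genes peaked at day 4 in the deletion line, and at day 7 Hbb-y lay at 6.07 in the deletion line and 8.92 in the full-length line.

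The embryonic globin genes had the largest changes of the group between days 0 and 4, and 2 of the 3 passed the test, which they entered only because the later arrays were bright. At the brightest probe set, Hbb-bh1, an embryonic beta-like chain, had deletion-line levels of 4.19, 8.02 and 5.41 at days 0, 4 and 7, and full-length-line levels of 5.38, 8.24 and 7.26. Hba-x, the embryonic alpha-like zeta chain, had levels of 4.48, 7.68 and 1.98 in the deletion line and of 5.06, 7.60 and 5.93 at the same days in the full-length line. Hbb-y, the embryonic epsilon-like chain, had levels of 4.26, 8.81 and 6.07 in the deletion line and of 4.18, 8.67 and 8.92 in the full-length line. Both day 4 arrays were above both day 0 arrays for each of the 3 genes, and the day 0 arrays lay at or below 5.38.

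Day 4 over day 0 gave Hbb-bh1 a fitted rise of 6.76-fold (log2 2.76, SE 0.50, limma adjusted p = 0.0433) and Hba-x a fitted rise of 4.84-fold (log2 2.27, SE 0.36, limma adjusted p = 0.0349). Hbb-y had the larger fitted value, 10.4-fold (log2 3.37, SE 0.69), and missed the threshold (limma adjusted p = 0.0628). With day 0 levels at or near the floor, these fitted values, their SE and their adjusted p depend on the floor, and the values are not bounds. With no floor the SE of Hba-x was 0.996 (limma adjusted p = 0.220), while Hbb-bh1 and Hbb-y were called (limma adjusted p = 0.0400 and 0.0473). For Hbb-y the log2 change was 1.08 without probe sets ending in _x_at, which hold probes that can match other sequences, 2.62 with the mean of its probe sets and 4.52 with no floor. These were 2 calls among the 10 genes, both higher, where 1.58% of all measured genes were called in either direction, 0.881% higher and 0.7% lower. An unadjusted p under 0.05 was reached by 2157 genes. The globin genes passed the filter on dim genes only through the later arrays, since their day 0 mean signals of 18.6 to 30.0 were below the floor, so the count is a description and nothing is read from it. Without the filter, no gene of the array was called, and the adjusted p of Hbb-bh1 and Hba-x was 0.438 and 0.349. Leaving out any array of day 0 or day 4 also ended both calls, with no gene called among all 13277, and without the deletion or the full-length day 7 array Hba-x missed the threshold (adjusted p = 0.0518 and 0.0543) while Hbb-y passed it (adjusted p = 0.0284 and 0.0307). Over 15 alternatives the limma adjusted p ranged from 0.0182 to 0.524 for Hbb-bh1, from 0.0163 to 0.434 for Hba-x and from 0.0244 to 0.630 for Hbb-y.

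The promoters of Hbb-y and Hba-x, from 250 bases before to 50 bases after the start site, are shown because these are the globin genes with an entry, and both had higher levels at day 4 than at day 0 in both lines. Sequences are those of RefSeq on GRCm38.p6, and entries were matched for 6 of the 10 genes. Capitals mark 4 kinds of word, the GATA words, CACCC and CCAAT on either strand, and ATAAA or else TATAA on the gene's strand between positions -45 and -18. The GATA words searched were AGATAA and also TGATAA, besides AGATAG and also TGATAG.
Hbb-y, chr7:103853158-103853457, minus strand: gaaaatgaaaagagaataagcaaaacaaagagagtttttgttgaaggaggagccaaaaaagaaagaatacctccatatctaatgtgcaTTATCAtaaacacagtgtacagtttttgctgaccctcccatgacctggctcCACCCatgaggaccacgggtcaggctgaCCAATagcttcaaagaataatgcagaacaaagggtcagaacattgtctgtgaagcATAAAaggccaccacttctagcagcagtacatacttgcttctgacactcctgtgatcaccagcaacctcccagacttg
Hba-x, chr11:32276350-32276649, plus strand: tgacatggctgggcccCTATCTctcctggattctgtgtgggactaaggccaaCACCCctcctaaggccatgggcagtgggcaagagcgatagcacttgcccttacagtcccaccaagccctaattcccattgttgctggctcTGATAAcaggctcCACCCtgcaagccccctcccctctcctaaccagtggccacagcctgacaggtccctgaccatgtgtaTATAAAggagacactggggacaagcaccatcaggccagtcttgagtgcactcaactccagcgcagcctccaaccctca
The Hbb-y window held 1 GATA word at -162 on the opposite strand, CACCC at -111, CCAAT at -83 and ATAAA at -28, each position being that of the leftmost base as printed. The Hba-x window held GATA words at -234, on the opposite strand, and at -108, CACCC at -198 and -95, and overlapping TATAA and ATAAA at -28 and -27. Of 32851 windows of this length, 29.8% held a GATA word, 57.5% CACCC, 37.4% CCAAT and 6.75% ATAAA or TATAA at those positions. Klf1 had 1 GATA word, 2 CACCC and 1 CCAAT, Gata1 had 0 GATA words and 2 CACCC, and Kdr had 0 GATA words and 1 CACCC. Of the 2 windows of Tal1, 1 held a GATA word. These matches describe the letters in the windows, and binding was not measured.

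Between days 4 and 7, at the brightest probe sets, Hba-x and Hbb-bh1 were lower at day 7 in both lines, while Hbb-y was lower in the deletion line only. In the deletion line Hbb-y was 6.68-fold, Hbb-bh1 6.11-fold and Hba-x at least 4.98-fold lower at day 7 than at day 4. In the full-length line Hbb-y was 1.19-fold higher at day 7 than at day 4, Hbb-bh1 1.97-fold lower and Hba-x 3.18-fold lower. The other probe sets of Hbb-bh1 gave log2 -1.05 and 0.04 in the full-length line, so its probe sets disagreed on a fall there. Over both lines the log2 changes of day 7 over day 4 were -1.99 for Hba-x (SE 0.36, limma adjusted p = 0.123), -1.80 for Hbb-bh1 (SE 0.50, limma adjusted p = 0.249) and -1.25 for Hbb-y (SE 0.69, limma adjusted p = 0.541), none called, where 2 genes, or 0.0151% of those measured, were. Against day 0, Hbb-y at day 7 was at least 11.8-fold higher in the full-length line and at least 1.63-fold higher in the deletion line, and none of the 10 genes was called in day 7 over day 0, where 1.03% of measured genes were, 0.64% higher and 0.392% lower.

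At day 7 the deletion line was lower than the full-length line at each globin gene, by 7.21-fold for Hbb-y (log2 -2.85), 3.60-fold for Hbb-bh1 (log2 -1.85) and at least 1.48-fold for Hba-x (log2 -0.56). At day 4 the log2 line differences of the 3 genes lay between -0.22 and 0.14, and over all their probe sets between -0.63 and 0.31. At day 0 their levels were at or near the floor, so the floored differences cannot show whether the lines agreed. The deposited day 0 differences were -1.19 for Hbb-bh1, -0.58 for Hba-x and 0.08 for Hbb-y. These compare 1 array with 1 array and have no test. The size of the day 7 difference depended on the probe set, and the brightest ones of Hbb-y and Hbb-bh1 end in _x_at. For Hbb-y the other _x_at probe set gave log2 -2.92 and the remaining one, with levels of 1.57 and 6.93 in the deletion and full-length lines, at least 2.96-fold lower. For Hbb-bh1 the other probe sets, which are not of this kind, gave log2 -0.78 and, with the deletion line's level of 2.29 below the floor, at least 3.62-fold lower. All 3 probe sets of Hbb-y and all 3 of Hbb-bh1 were lower in the deletion line at day 7.

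**Figure D2:**
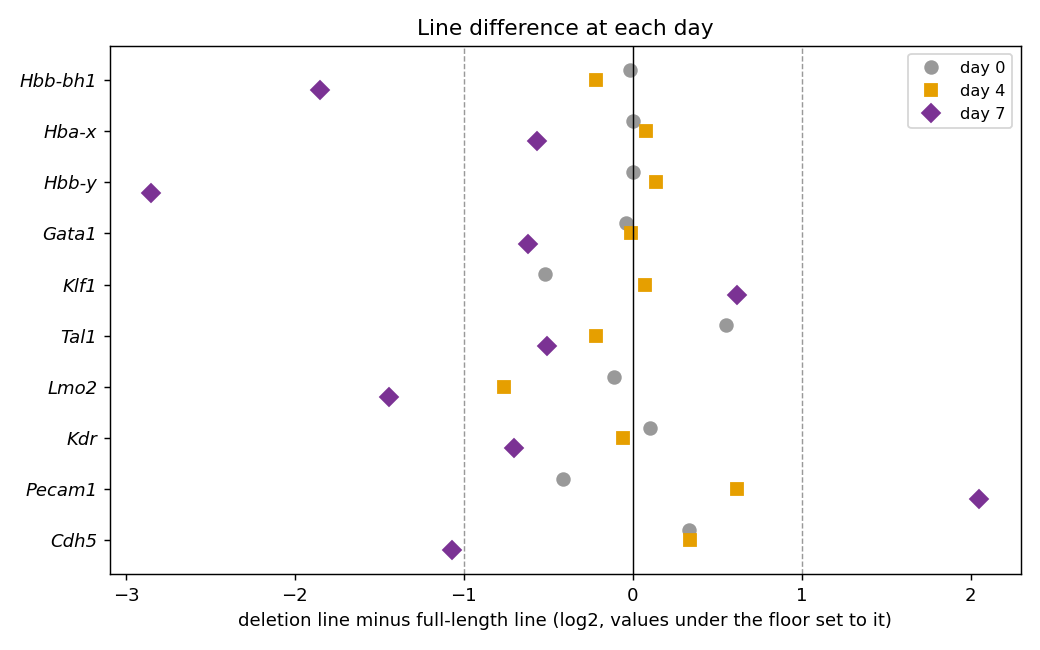
Deletion line minus full-length line at days 0, 4 and 7 (log2, brightest probe set, values under the floor set to it), with dashed lines at a 2-fold difference. At day 7 Hbb-y, Hbb-bh1, Lmo2 and Cdh5 lay past 2-fold lower and Pecam1 past 2-fold higher in the deletion line, while at days 0 and 4 no gene reached 2-fold.

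The line difference over all days was called for none of the 10 genes, nor for any measured gene (0 of 13277 with limma, 1624 at an unadjusted p under 0.05). Counted by size (a difference of at least 2-fold in which the brighter signal was at least 2 times that of the floor), none of the 10 genes differed between the lines at day 0 or day 4, where 3.15% and 2.43% of measured genes were higher in the deletion line and 2.82% and 3.54% lower. At day 7, 4 were lower in the deletion line (Hbb-y, Hbb-bh1, Lmo2 and Cdh5) and 1 was higher (Pecam1), where 8.92% and 3.95% of all measured genes were. The median day 7 line difference of the 10 genes was -0.66, and that of all measured genes -0.05. The 3 globins count as measured only through arrays of days 4 and 7. The day 7 count of lower genes and this median are therefore not to be read against the background.

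Among the transcription regulators, Tal1 and Lmo2 were highest at day 4 in both lines, like Hbb-bh1 and Hba-x, while Gata1 was highest at day 7 in both and Klf1 at day 4 in the deletion line and day 0 in the full-length line. Tal1, a helix-loop-helix factor, had levels of 6.44, 6.73 and 4.44 in the deletion line by day, and of 5.89, 6.95 and 5.87 in the full-length line. Lmo2, the bridging protein of the TAL1 complex, had levels of 6.73, 7.15 and 5.62 in the deletion line and of 6.84, 7.91 and 7.06 in the full-length line. For both genes the day 7 array of the deletion line was the lowest of the 6. Day 4 over day 0 gave log2 changes of 0.68 for Tal1 (limma adjusted p = 0.459) and 0.75 for Lmo2 (limma adjusted p = 0.43), and day 7 over day 4 gave -1.22 (limma adjusted p = 0.296) and -1.19 (limma adjusted p = 0.315), none of them called. At day 7 Lmo2 was 2.71-fold lower in the deletion line than in the full-length line, and at day 4 1.69-fold lower.

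Gata1, which encodes the zinc finger factor of red cells and megakaryocytes, had levels of 6.63, 6.42 and 6.66 in the deletion line by day and of 6.67, 6.43 and 7.28 in the full-length line. Klf1, a zinc finger activator of globin genes, had levels of 6.15, 6.71 and 6.12 in the deletion line and of 6.67, 6.64 and 5.50 in the full-length line. Gata1 thus lay between 6.42 and 6.67 on 5 arrays and was highest on the full-length day 7 array, on which Klf1 was lowest. Neither was called in any comparison (limma adjusted p from 0.452 to 0.959). Day 4 over day 0, the change in which the globins rose, gave log2 -0.23 for Gata1 (SE 0.36) and 0.27 for Klf1 (SE 0.40).

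Of the endothelial genes, Kdr had the time course nearest to that of the globins, and Pecam1 was lowest at day 4 in both lines. Kdr, which encodes a receptor of vascular endothelial growth factor, had levels of 5.87, 6.95 and 5.36 in the deletion line by day and of 5.77, 7.01 and 6.07 in the full-length line. Its day 4 arrays stood above the other 4, with log2 1.16 over day 0 (SE 0.37, limma adjusted p = 0.182) and -1.26 for day 7 over day 4 (SE 0.37, limma adjusted p = 0.275). Counted by size, 4 of the 10 genes were at least 2-fold higher at day 4 than at day 0 in both lines, namely the 3 globins and Kdr, where 3.07% of measured genes were, and 0 were lower in both, where 1.72% were. The 3 globins count as measured only through the arrays on which they are high, so these counts of higher genes are not to be read against the background. The deletion line had 4 higher (6.26% of measured genes) and 0 lower (4.07%). The full-length line had 6 higher (8.14%), adding Tal1 and Lmo2, and 1 lower, Pecam1 (5.03%).

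The day 7 arrays set against those of day 4 had more lower than higher genes among the 10, in both lines. Since the 3 globins count as measured only through later arrays, counts here that hold a globin are not read against the background. At least 2-fold lower at day 7 were 6 of the 10 genes in the deletion line (the 3 globins, Tal1, Lmo2 and Kdr), where 5.97% of measured genes were, and 3 in the full-length line (Hba-x, Klf1 and Tal1), where 3.14% were. At least 2-fold higher was 1 gene in each line, Pecam1 in the deletion line (4.78%) and Cdh5 in the full-length line (5.2%). Shared by both lines were 2 lower genes, Hba-x and Tal1 (0.851%), and 0 higher (1.4%). Against day 0, the deletion line at day 7 had 2 genes higher, Pecam1 and Cdh5 (6.25%), and 2 lower, Tal1 and Lmo2 (4.72%), while the full-length line had 3 higher, Hbb-bh1, Hbb-y and Cdh5 (9.96%), and 1 lower, Klf1 (4.27%).

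Pecam1 was highest on the day 7 array of the deletion line, with levels of 8.80, 8.43 and 10.68 in the deletion line by day and of 9.21, 7.81 and 8.63 in the full-length line. The deletion line was 4.14-fold above the full-length line at day 7 (log2 2.05) and 1.33-fold below it at day 0. Cdh5, which encodes VE-cadherin, had levels of 5.70, 6.34 and 6.75 in the deletion line and of 5.23, 6.0 and 7.82 in the full-length line, highest at day 7 in both. Cdh5 was the only 1 of the 10 genes at least 2-fold higher at day 7 than at day 0 in both lines, 2.07-fold in the deletion line and at least 5.48-fold in the full-length line, where 2.36% of measured genes were. Its log2 change was 1.75 (SE 0.45, limma adjusted p = 0.113), and its dimmer probe set was above the floor on only 2 of 6 arrays, too few to show whether it agreed.

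**Figure D3:**
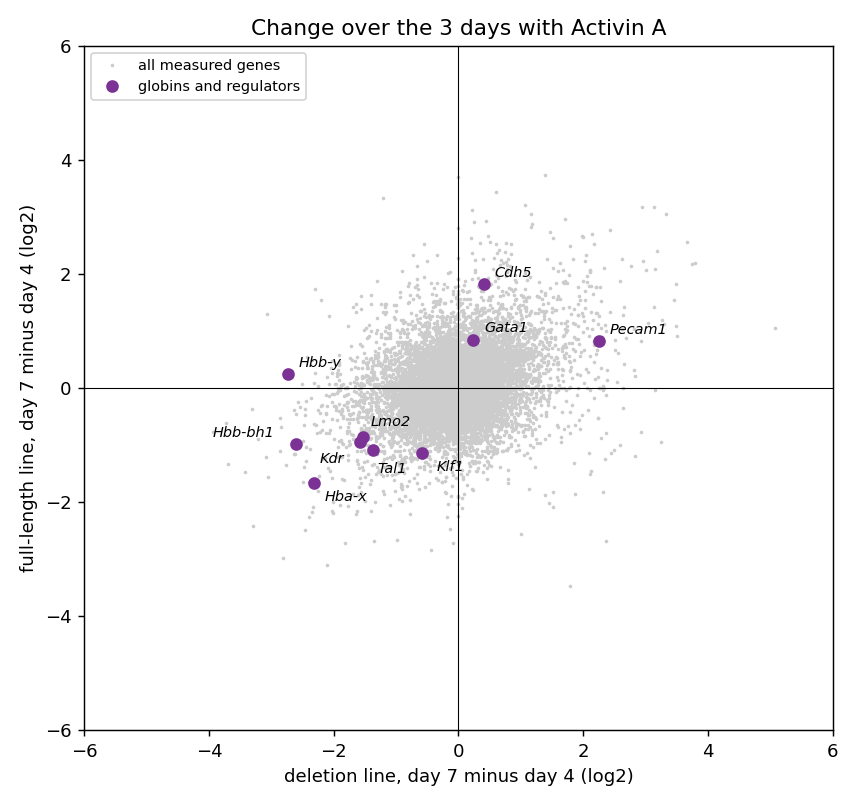
Change from day 4 to day 7 (log2) in the deletion line (horizontal axis) and in the full-length line (vertical axis) for the 13277 measured genes (grey) and the 10 named genes (purple). Hbb-y lay at -2.74 in the deletion line and 0.25 in the full-length line, and Pecam1 at 2.25 in the deletion line and 0.82 in the full-length line.

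At day 7 the pluripotent cell genes, like Pecam1, were higher in the deletion line than in the full-length line. The summed signal of 6 such markers (Pou5f1, Sox2, Nanog, Zfp42, Esrrb and Dppa5a, all above the floor on all arrays) was 87593, 77181 and 95221 in the deletion line by day and 112275, 64206 and 74983 in the full-length line. The median line difference of the 6 was 0.47 on the log2 scale at day 7, with 6 of 6 higher in the deletion line. It was 0.53 at day 4, where Pou5f1 and Nanog were lower in the deletion line, and -0.36 at day 0. Within the deletion line the median change of day 7 over day 0 was -0.04, while Pecam1 was 3.68-fold higher. Their part in the Pecam1 result was not tested.

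Genes of extraembryonic endoderm, the yolk sac layer that lies next to the blood islands, were higher at day 4 than at day 0 in both lines, like the globins, but the order of the lines at day 7 was the opposite. The summed signal of 10 markers was 864, 6120 and 5703 in the deletion line by day and 820, 3157 and 1969 in the full-length line. Of these 10 genes, 3 rose and 0 fell at day 4 over day 0 in the limma test, where 0.881% of measured genes rose and 0.7% fell. Afp, Ttr, Apoa1 and Apob were below the floor on both day 0 arrays and above it on the other 4. These genes count as measured only through those arrays, so the count that rose is not to be read against that share. Day 7 over day 4 gave the list a median log2 change of -0.73 in the full-length line and of -0.22 in the deletion line. In the full-length line Hba-x and the brightest probe set of Hbb-bh1 were also lower. At day 7 the sum was higher in the deletion line, where the globins were lower. The part of these cells in the globin result was not tested.

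Markers of other cell types were summed in the same way. Macrophage markers summed to 4613, 656 and 1154 in the deletion line's 3 arrays by day and 1555, 699 and 1550 in the full-length line. Lyz2 was at 11.60, below the floor and 6.17 in the deletion line, and at 9.35, 6.19 and 5.84 in the full-length line. On the full-length day 7 array Cd68 (9.81) and Csf1r (8.88) made up most of the sum, and Tyrobp and Fcer1g were below the floor. The pan-leukocyte gene Ptprc was below the floor on all 4 arrays of days 4 and 7. Fibroblast markers summed to 14426, 905 and 2195 in the deletion line and 6211, 1130 and 1836 in the full-length line, lowest at day 4 in both. Of these 9 genes, 5 fell at day 4 over day 0 in the limma test and 3 at day 7 over day 0, and 0 rose in either. The shares of all measured genes that fell were 0.7% and 0.392%. Megakaryocyte markers, 5 of which were on the array, summed to between 314 and 600.2 over the 6 arrays, and 1 to 3 of the 5 were below the floor on each. Heart muscle markers summed to 390, 708 and 677 in the deletion line and 568, 1980 and 766 in the full-length line. In the full-length line the day 4 maximum of this sum rested on Actc1, at 10.53 on that array. Myh6 was highest at day 4 in both lines, at 7.35 in the deletion line and 7.75 in the full-length line. Myh7 was lowest at day 4 in both lines, and Tnnt2 was below the floor on 5 of the 6 arrays. Trophoblast markers summed to 2742, 1963 and 3206 in the deletion line and 2477, 1796 and 4106 in the full-length line, lowest at day 4 in both. This sum rested mostly on Tfap2c, at 9.89 to 11.62 over the arrays and itself lowest at day 4. Eomes and Hand1 were higher at day 4 than at day 0 in both lines, and the list's median log2 change was 0.36. At day 7 Elf5 was below the floor in the deletion line and at 8.22 in the full-length line. Gata3 was at 6.47 and 8.01 in the same order, and Eomes, higher in the deletion line, at 7.92 and 7.23. The list's median line difference at day 7 was -0.53. The part of these cells in the results was not tested.

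Few other red cell genes were bright enough to measure, and in the limma test 1 of them rose with the embryonic globins. Of 24 genes of red cell proteins and haem synthesis, 16 were on the array and 8 were measured. Of the 8, 1 rose and 0 fell at day 4 over day 0, where 0.881% of measured genes rose and 0.7% fell. Their median log2 change was 0.23, against 0.04 over all measured genes. The 1 was Car2, a carbonic anhydrase of red cells and of many other tissues, which rose 4.84-fold (log2 2.27, SE 0.37, limma adjusted p = 0.0349). Car2 also shared the day 7 line difference, with levels of 10.77, 12.96 and 11.04 in the deletion line by day and of 11.24, 13.60 and 13.19 in the full-length line. Bpgm, which makes the red cell metabolite that loosens oxygen from haemoglobin, had a log2 change of 0.91 for day 7 over day 0 (limma adjusted p = 0.271). Counted by size, the full-length line had 3 of the 8 higher at day 4 than at day 0, Car2, Bpgm and Gypc (8.14% of measured genes), and 0 lower (5.03%). The deletion line had 1 higher, Car2 (6.26%), and 1 lower, Ank1 (4.07%).

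The 8 unmeasured genes held several that define committed red cells. Alas2, the red cell enzyme of haem synthesis, Epb42, Rhag, Ermap and Hemgn were below the floor on all 6 arrays, and Slc4a1, the red cell anion exchanger, lay at 5.41 on the full-length day 4 array and below the floor on the others. Of the adult globin genes, Hba-a1 was below the floor on all arrays and Hbb-b2 on 5 of 6. Hba-a2, whose coding sequence is nearly identical to that of Hba-a1, was at 7.78 to 8.14 in the deletion line and 8.49 to 8.82 in the full-length line with no call, so which gene its probe set read is uncertain.

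**Figure D4:**
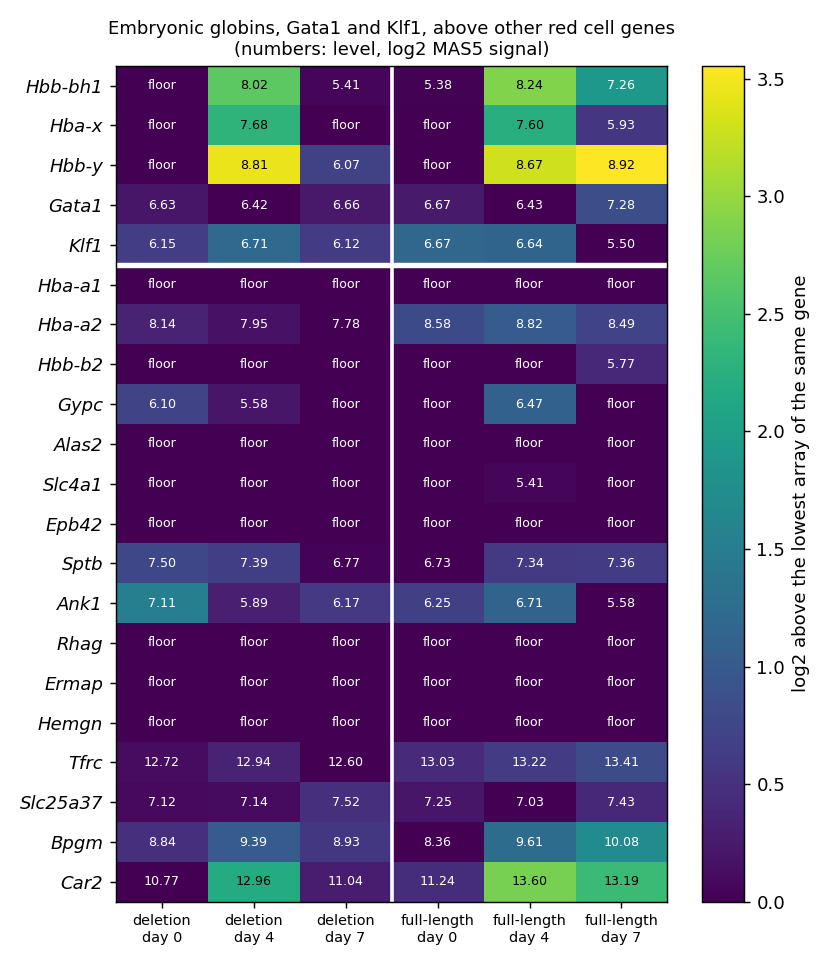
Levels (numbers, log2 MAS5 signal, "floor" where at or below it) of the embryonic globin genes, Gata1 and Klf1 above 16 other red cell genes, with the deletion line's arrays left of the full-length line's. Colour gives each gene's height above its own lowest array, so colours compare arrays within a row. Car2 has a day 4 maximum in both lines, like Hbb-bh1 and Hba-x.

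The genes next to the globins in RefSeq order on GRCm38.p6 were read for their position. Beside Hba-x, Nprl3, whose introns hold alpha-globin enhancers, stayed between 8.37 and 8.98 on the 6 arrays, and Mpg, a DNA repair glycosylase gene, between 9.23 and 10.43. Beside Hbb-y, the olfactory receptor gene Olfr66 stayed at or below 5.89. None of these 3 was called in any comparison.

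Of 20 blood transcription factor genes beside the 4 members, 17 were measured and none was called in any of the 4 comparisons, with a median log2 change of 0.33 for day 4 over day 0. Gata2, a factor of blood progenitors that also acts in other lineages, had levels of 6.63, 8.35 and 8.36 in the deletion line by day and of 7.79, 8.70 and 9.23 in the full-length line. Its log2 change was 1.58 for day 7 over day 0 (limma adjusted p = 0.0692) and 1.31 for day 4 over day 0 (limma adjusted p = 0.0954). Gfi1b, a repressor of red cell and megakaryocyte progenitors, had a log2 change of -1.16 for day 7 over day 0 (limma adjusted p = 0.159).

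Among 23 genes of growth factors and receptors of blood and vessels, 18 were measured. At day 4 over day 0, 0 rose and 2 fell, where 0.881% and 0.7% of measured genes did. Vegfc, the lymphatic vessel growth factor, fell 2.69-fold (log2 -1.43, SE 0.25, limma adjusted p = 0.0413), with levels of 9.69, 8.35 and 8.26 in the deletion line by day and of 9.97, 8.46 and 8.42 in the full-length line. Nrp2, its co-receptor, fell 3.28-fold (log2 -1.72, SE 0.24, limma adjusted p = 0.0250). Vegfc was also the 1 gene of the list called at day 7 over day 0 (log2 -1.49, limma adjusted p = 0.0468), where 0.392% of measured genes fell. There Nrp2 had log2 -1.36 (limma adjusted p = 0.0504) and Nrp1, a co-receptor of KDR, a fitted 4.52-fold lower level (log2 -2.18, limma adjusted p = 0.0638). The list's median change at day 4 was -0.20. The fibroblast markers were also lower at days 4 and 7 (median log2 change -3.42 at day 4 over day 0), and their part in these changes was not tested. Leaving out any array of day 0 or day 4 left no gene called at day 4 over day 0, so the calls of Car2, Vegfc and Nrp2 there ended too.

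Of 24 endothelial surface and transcription genes 16 were measured, and of 17 early mesoderm genes 10 were measured, with none called in any comparison. In the endothelial list the median day 4 change was 0.51, against 0.04 over all measured genes. Sox17, a factor of arterial endothelium and of endoderm that also stands among the 10 endoderm markers, had log2 2.08 for day 4 over day 0 (limma adjusted p = 0.0726) and 2.10 for day 7 over day 0 (limma adjusted p = 0.0785), and Plvap, a protein of endothelial diaphragms, had -1.45 for day 7 over day 0 (limma adjusted p = 0.179). Counted by size, 7 of the 16 were higher at day 4 than at day 0 in the deletion line (6.26% of measured genes). These were Cd34, Ramp2, Cldn5, Sox7, Sox17, Sox18 and Ets1. Lower there were 2, Vwf and Mmrn2 (4.07%). The full-length line had 2 higher, Sox17 and Ets2 (8.14%), and 2 lower, again Vwf and Mmrn2 (5.03%). Icam2, Emcn and Clec14a, all known in endothelium, were too dim to be measured, as were Erg and Tie1 of the other lists. In the mesoderm list Eomes, a T-box factor of the primitive streak, had log2 1.94 at day 4 over day 0 (limma adjusted p = 0.0880) and 1.02 at day 7 over day 0 (limma adjusted p = 0.300). Hand1, a factor of heart and extraembryonic mesoderm, had log2 0.84 at day 7 over day 0 (limma adjusted p = 0.283), and the list's median day 4 change was 0.16.

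Genes with courses most like those of Hbb-bh1, Hba-x and Kdr were sought among 1099 measured genes that ranged over at least 2 on the log2 scale, by Pearson correlation of levels over the 6 arrays. Nearest to Hbb-bh1 were Spon1, a matrix protein gene (r = 0.991), Fam171b, the calponin gene Cnn1, Rab32 and Fign (r = 0.981 for the last). Spon1 was at the floor, 9.09 and the floor in the deletion line by day, and at the floor, 9.16 and 8.55 in the full-length line. Since it was picked by likeness over these same arrays, its day 7 line difference is no separate result. Nearest to Hba-x were Slc35d3 (r = 0.988), Mal2, Gm11772, Kctd12b and Pou3f1. Nearest to Kdr were Pou3f1, the POU factor OCT6 of the primed epiblast (r = 0.996), the homeodomain gene Hopx, Tmem54, Marveld3 and Pid1. The correlations rest on 6 arrays that share the same days and media, and are a description.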

How the data were processed

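RNA of 6 samples was hybridised to Affymetrix arrays, 1 for each line and day, grouped by title. The deposited values are MAS5 signals, per the submitters' processing notes, read as log2 from the values (0 to 15.68, with trimmed mean signals of 496.7 to 496.9 on all arrays, 2% left out at each end). No source used here gives the MAS5 version, scaling target or detection calls. With such scaling, a level is relative to its array's mean.

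Values under the floor, the median over arrays of the 40th percentile of all probe sets, were set to it. The annotation gave 34945 probe sets 1 symbol, 932 several and 9160 none, and 34741 of those with 1 symbol were found in RefSeq, with 0 symbols changed. The probe set with the highest mean signal gave a gene's level. Fits used limma 3.58.1 in R 4.3.3 (additive line and day, variance trend, two-sided, Benjamini-Hochberg over 13277 genes at 0.05, 2 residual and 5.63 prior degrees of freedom) and were tested on simulated data. Nothing in the labels names repeated cultures, so p-values measure only the spread between these arrays. Single arrays were compared by size. Marker sums add signals at or above the floor.

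The members, lists and tests were chosen with earlier results of these data known. The text names the 10 members, each list's called genes and its 2 largest day 7 over day 0 changes, and the 5 genes most like Hbb-bh1, Hba-x and Kdr. Other genes, such as unmeasured list genes and neighbours, were named after their values were seen. Alternatives changed the floor, the filter, the probe sets, the scaling, the trend, the model or the arrays used.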

Additional observations from a re-analysis of the deposited data

Results flagged for a closer look

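Pecam1 moved in opposite directions in the lines between days 0 and 7 by at least 0.5 on the log2 scale in each. At day 7 over day 0 its log2 change was 1.88 in the deletion line and -0.58 in the full-length line, a difference of 2.46 that was not tested, since each line has 1 array per day. No other of the 10 genes met this rule in any pair of days.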

How the results depend on the processing

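No pairing by replicate was possible because the labels carry no replicate numbers and each line and day has 1 array. Line was a term of the model, so days were already compared within lines. For day 4 over day 0, 210 genes and 2 of the 10 members were called. The counts were 0 genes and 0 members with no filter on dim genes, 52 and 0 with the mean of all probe sets, 16 and 0 with no variance trend, 18 and 0 with no line in the model, 319 genes with arrays scaled to equal medians, and 0 to 129 genes and 0 to 2 members with 1 array left out. For day 7 over day 0, 137 genes were called, against 67 with no floor, 0 with no filter, 32 with the mean of probe sets, 227 with equal medians, 3 with no trend, 12 with no line, and 0 to 10 with 1 array left out. For day 7 over day 4, 2 genes were called, against 1 with no floor, with the mean of probe sets, with quantile normalization or with no line, 44 with equal medians, 0 with no trend, and 0 to 0 with 1 array left out. The line difference had 0 calls, and 3 with equal medians. With no floor Hba-x missed the threshold at day 4 over day 0 (log2 2.87, limma adjusted p = 0.220). Without probe sets ending in _x_at, an alternative chosen after seeing the data, Hbb-y had log2 1.08 at day 4 over day 0 (limma adjusted p = 0.283).

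Some log2 differences turned sign, and the cause was not tested. With the mean of probe sets Cdh5 was -0.0725 at day 4 over day 0, and with no floor Hba-x was -0.815 at day 7 over day 0. With 1 array left out, day 4 over day 0 ranged from -0.17 to 0.70 for Klf1. Day 7 over day 0 ranged from -0.02 to 0.58 for Hba-x, -0.95 to 0.0575 for Lmo2, -0.46 to 0.26 for Kdr and -0.32 to 1.62 for Pecam1, and day 7 over day 4 from -2.71 to 0.21 for Hbb-y, highest without the deletion line's day 7 array. The line difference ranged from -0.36 to 0.17 for Tal1, -0.28 to 0.04 for Hba-x, -1.43 to 0.07 for Hbb-y, -0.23 to 0.34 for Klf1, -0.38 to 0.02 for Kdr and -0.37 to 0.34 for Cdh5, with the sign turned without either day 7 array (for Tal1 also without either day 4 array).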
